A study of Mus musculus with 6 samples.

Results

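Long noncoding RNAs are transcripts that are not translated into a conventional protein, and 192 of them were well measured in activated mouse lung group 2 innate lymphoid cells (ILC2s). They were taken from the 22554 rows of the gene count table, of which 2791 carried the type lncRNA. A row was kept when its count reached 50 in each of the 6 libraries, it did not lie on chromosome X, and its symbol was neither *Gas5*, *Zfas1* nor one starting with Snhg. Of the other lncRNA rows, 2536 met the other conditions but fell under the count minimum, 21 were past it but were set aside by name or chromosome, and 42 failed on both. The members were thus chosen by their counts in these libraries, and their levels are described here and not tested.

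The study asked whether engagement of CD200R, an inhibitory receptor, alters the transcriptome of ILC2s. ILC2s (lineage-negative cells positive for CD45, CD127 and ST2) were sorted from lungs of 8-week-old wild-type BALB/cByJ mice that had received 3 intranasal doses of 0.5 µg recombinant mouse (rm)IL-33, and were cultured for 24 h with rmIL-2 and rmIL-7 at 10 ng/mL each. In 3 libraries the culture held CD200-Fc, a fusion protein of the CD200R ligand (replicates 35, 36 and 38), and in 3 it held an isotype control (replicates 16, 17 and 18). IL-33 exposure, sorting and cytokines were therefore shared by both groups, and no untreated cells were compared. The sources used here do not say which mouse or culture each library came from, and p-values therefore cover only the variation among libraries, part of which may be technical. In such bulk samples, fewer cells of a type and less RNA per cell cannot be told apart.

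Long noncoding RNAs act in several ways. Some stay in the nucleus, where *Malat1* accumulates in nuclear speckles, *Neat1* builds paraspeckles and *Kcnq1ot1* silences imprinted neighbours. Others bind proteins or microRNAs in the cytoplasm, are cut to release microRNAs, or are transcribed against or beside a coding gene. In lymphocytes the microRNA 17-92 cluster is known for driving proliferation and survival, and *Morrbid* for controlling the pro-apoptotic neighbour gene *Bcl2l11* in short-lived myeloid cells.

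The libraries held 20096555 to 23239853 counts with isotype and 24038189 to 33321709 with CD200-Fc. All 12 ILC2 markers were detected and 3 of them passed the test, with a summed level of 10250 to 10450 CPM (counts scaled to library depth) with isotype and 10640 to 10750 with CD200-Fc. Among the markers of 11 other cell types no gene passed the test, but only 0 to 3 genes of each list were tested. For neutrophils and fibroblasts 0 were tested. The summed levels cover only markers present in the count table, such as 2 of 4 for dendritic cells and 1 of 4 for endothelium. These sums reached at most 39.6 CPM, in the dendritic cell list led by *Xcr1*. *Cd3g*, *Cd79b*, *Epcam* and *Pecam1* led the T cell, B cell, epithelial and endothelial lists at 22.8, 17.4, 29.3 and 22.2 CPM, while 3 epithelial, 2 fibroblast and 1 T cell markers were at 0 in all libraries. The macrophage list summed to 2.96 to 5.72 CPM with isotype and 3.56 to 17.3 CPM with CD200-Fc, while the epithelial list summed to 24.8 to 25.9 and 29.8 to 35.3 CPM and the eosinophil list, with *Ccr3* alone in the table, to 4.67 to 5.08 and 5.66 to 10.5 CPM, both without overlap. The part of these cells in the results was not tested. The biological coefficient of variation was 10.8%.

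Of the 192 members, 6 span a microRNA hairpin on their own strand, and mature microRNAs of these host transcripts are shown. The list need not hold all microRNAs that the hosts carry. The mature sequences are from RefSeq (GRCm38.p6), 5′ to 3′, with the seed, bases 2 to 8, in capitals. *Mir17hg* on chromosome 14 holds the first 6, *Dleu2* on chromosome 14 miR-16, *Mir22hg* on chromosome 11 miR-22, *Gm17494* on chromosome 3 miR-760, *2900076A07Rik* on chromosome 7 miR-1839 and *Gm10505* on chromosome 17 miR-7216.
mmu-miR-17-5p: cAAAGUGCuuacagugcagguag
mmu-miR-20a-5p: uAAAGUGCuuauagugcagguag
mmu-miR-18a-5p: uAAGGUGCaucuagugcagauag
mmu-miR-19a-3p: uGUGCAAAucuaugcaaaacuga
mmu-miR-19b-3p: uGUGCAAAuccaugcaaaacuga
mmu-miR-92a-3p: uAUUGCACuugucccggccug
mmu-miR-16-5p: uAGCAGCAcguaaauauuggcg
mmu-miR-22-3p: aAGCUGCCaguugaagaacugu
mmu-miR-760-3p: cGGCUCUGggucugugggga
mmu-miR-1839-5p: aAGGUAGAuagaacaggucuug
mmu-miR-7216-5p: uGGAGAGCuggcagaggacccaga
Among those listed, the seed AAAGUGC is shared by miR-17 and miR-20a, and GUGCAAA by miR-19a and miR-19b. Each of the other 7 has a seed that no other listed microRNA has. The mature microRNAs were not measured in these libraries.

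Windows from 250 bases before to 50 after the gene start in RefSeq were available for 97 members. The first 2 shown are those of *Gm14275*, the member that passed the test, and *4933405E24Rik*, which had the next lowest p. *Dleu2* is shown for contrast, with motif matches in capitals.
Gm14275: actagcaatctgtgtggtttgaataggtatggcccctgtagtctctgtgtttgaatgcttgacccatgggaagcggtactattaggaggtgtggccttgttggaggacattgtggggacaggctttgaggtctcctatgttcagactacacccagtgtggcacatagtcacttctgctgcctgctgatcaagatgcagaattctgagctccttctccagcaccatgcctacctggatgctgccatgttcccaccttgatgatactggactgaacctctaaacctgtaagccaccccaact
4933405E24Rik: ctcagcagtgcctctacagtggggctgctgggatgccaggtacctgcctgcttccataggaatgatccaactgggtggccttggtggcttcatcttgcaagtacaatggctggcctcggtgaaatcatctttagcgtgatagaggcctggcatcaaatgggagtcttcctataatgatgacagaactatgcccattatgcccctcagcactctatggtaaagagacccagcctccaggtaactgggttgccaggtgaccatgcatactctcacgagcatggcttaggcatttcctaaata
Dleu2: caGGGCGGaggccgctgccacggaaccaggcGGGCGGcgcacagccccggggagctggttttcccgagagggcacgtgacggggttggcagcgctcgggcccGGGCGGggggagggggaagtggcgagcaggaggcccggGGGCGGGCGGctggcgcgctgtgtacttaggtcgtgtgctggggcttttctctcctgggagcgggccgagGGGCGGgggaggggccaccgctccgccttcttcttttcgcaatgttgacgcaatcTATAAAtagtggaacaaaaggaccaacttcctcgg
The RefSeq start of *Gm14275* lies within the gene as the count table places it, so part of its window is inside that gene. The windows lie at chr2:172287990-172288289 on the plus strand, chr11:54213239-54213538 on the minus strand and chr14:61682324-61682623 on the minus strand. The dinucleotide CG occurred 1, 3 and 29 times in the *Gm14275*, *4933405E24Rik* and *Dleu2* windows, against a median of 15 over the member windows and 7 over 27025 genes. Searched on both strands were the letters AGATAA for GATA factors, TGANTCA for AP-1, TATAAA for the TATA box, GGGCGG for the GC box, CCGGAAG for ETS factors, TGACGTCA for the cAMP response element, and the NF-kB consensus. None of these letters was found in the windows of *Gm14275* and *4933405E24Rik*, whereas that of *Dleu2* held GGGCGG 6 times, 1 pair overlapping, and TATAAA once. The TATAAA lay 15 to 20 bases after the RefSeq start and not before it. GGGCGG was present in 51.5% of member windows and 35.9% of all windows, CCGGAAG in 19.6% and 9.12%, TATAAA in 3.09% and 14.2%, and the NF-kB consensus in 6.19% and 4.35%.

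Members were spread over 20 chromosomes, with 24 on chromosome 17 and 18 on chromosome 11. In the GENCODE M21 annotation of the same coordinates 65 were lincRNAs, 61 antisense, 49 processed transcripts, 12 bidirectional promoter transcripts and 2 sense intronic, while 3 (*Gm47283*, *Gm9887* and *Gm26558*) were annotated there as protein coding. The row of *Ifi30*, a symbol best known for a lysosomal reductase, was a processed transcript. *Trerf1* (processed transcript, 20 exons) and *Trmt61b* (antisense, 7 exons) also carry symbols used for coding genes. Some rows overlap coding genes on the same strand, such as *Gm21982* (25 exons) and *Gm20427* (11 exons). Of their transcripts 90.4% and 90.1% matched other transcripts. Whether members are translated was not tested. The longest transcripts of the members had a median of 3 exons and 2.12 kb, against 7 exons and 3.01 kb over all 14124 genes tested. Protein-coding genes overlapped 110 members, 19 more had a coding start within 5000 bases on the other strand, and 63 had neither. No source used here states whether counting respected strand, so reads of overlapping genes cannot be told apart.

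**Figure D1:**
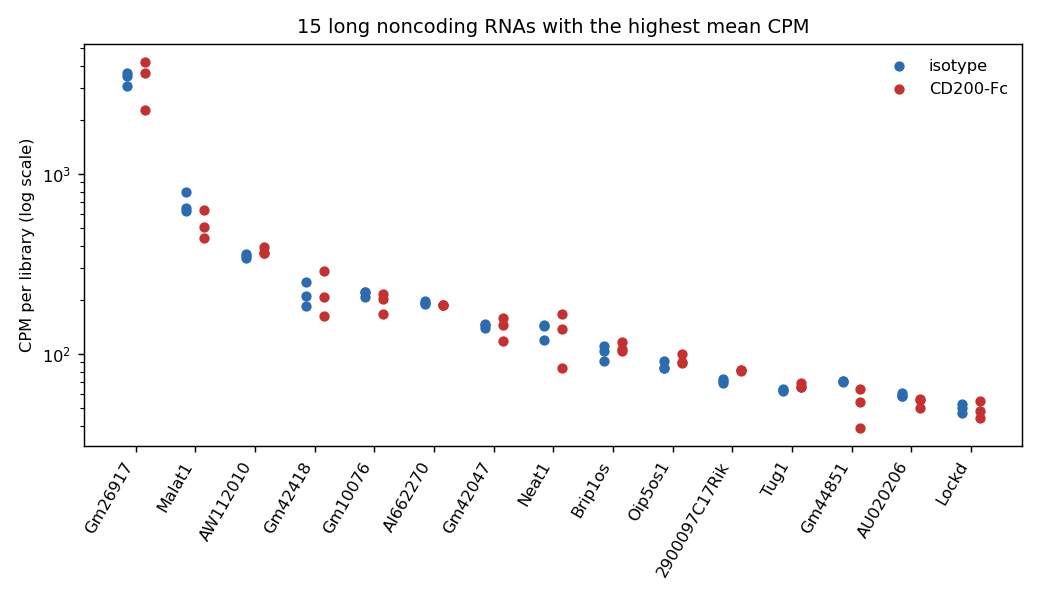
CPM in each library (log axis) of the 15 long noncoding RNAs with the highest mean CPM, where blue points are isotype and red points CD200-Fc libraries, 3 each. *Gm26917* lies highest, at 2257 to 4181 CPM, and *Malat1* next, at 439 to 796 CPM.

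Most of the signal came from few transcripts. Members took 0.632% to 0.792% of the counts of a library, and *Gm26917* and *Gm42418* together took 38.5% to 56.0% of that share. *Gm26917* had 3649, 3088 and 3526 CPM with isotype and 4181, 3646 and 2257 CPM with CD200-Fc. *Gm42418* had 253, 210 and 184 CPM with isotype and 288, 208 and 162 CPM with CD200-Fc. Both groups overlapped for both genes. They lie next to each other on chromosome 17. *Gm42418* (39846958 to 39848788) lies inside the ribosomal RNA row *CT010467.1* (39846353 to 39848827), which is on the other strand. Of the *Gm42418* transcript 67.9% matched that row at 95% identity or more, so its count is uncertain. *Gm26917* had no such match but ends at 39846341, just before that row. Whether the count of *Gm26917* holds ribosomal RNA reads was not tested. *CT010467.1* itself had 3896 to 6417 CPM.

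Per kilobase of the longest transcript, *Gm26917* was still first at 1019 CPM per kb, followed by *Gm10076* at 535, *AW112010* at 470, *Gm42418* at 119 and *Malat1* at 87.1. *Gm10076* shares 86.7% of its sequence with the ribosomal protein gene *Rpl41*, so its count is uncertain as well. *AW112010*, an interferon-responsive transcript shown in mouse macrophages to be translated from a non-canonical reading frame, had 350, 358 and 342 CPM with isotype and 364, 392 and 365 CPM with CD200-Fc. All CD200-Fc libraries lay above all isotype libraries, by a log2 fold change of 0.10 ± 0.05 (SE, edgeR adjusted p = 0.355). *Gm42047* had 119 to 159 CPM over the 6 libraries with 95.9% of its transcript matched elsewhere, *Brip1os* 91.3 to 116 CPM, and *Lockd*, beside the cell cycle inhibitor gene *Cdkn1b*, 44.3 to 54.6 CPM, each with overlapping groups. At the other end of the level order *Kcnq1ot1* stood 191st of 192 per kb, since its transcript spans 93.1 kb.

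The values just at the count minimum were close to each other. *Gm17092*, *6330418K02Rik* and *Gm20402* had lowest counts of 50.04, 50.25 and 50.46, and *Gm7292*, *2510046G10Rik* and *A530041M06Rik* stayed outside with 49.33, 49.23 and 49. A count of 50 stood for 2.15, 2.48 and 2.49 CPM in the isotype libraries and for 1.954, 1.501 and 2.08 CPM in the deeper CD200-Fc libraries, so a member needed a higher level with isotype than with CD200-Fc to be kept.

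**Figure D2:**
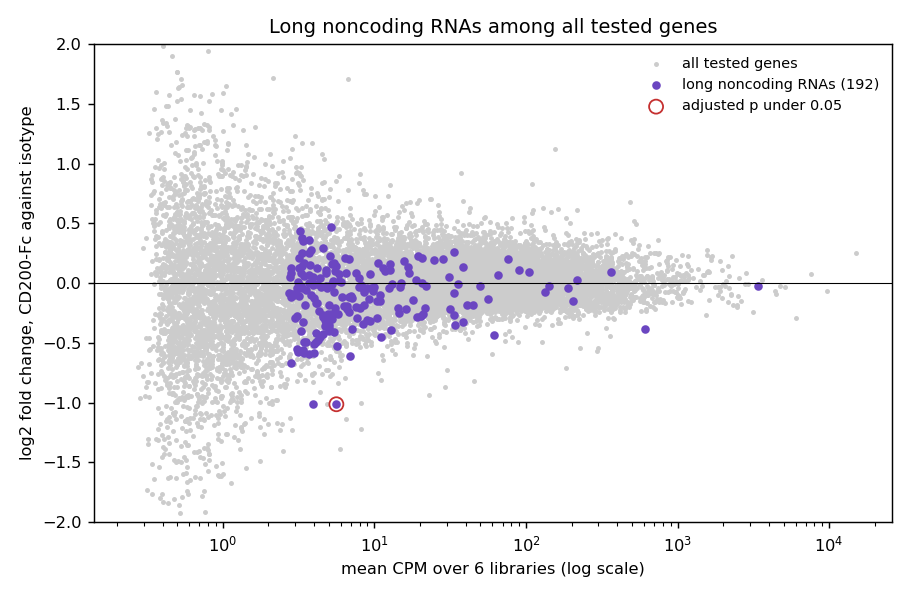
Log2 fold change of CD200-Fc against isotype plotted against mean CPM (log axis) for all tested genes (grey) and the 192 long noncoding RNAs (purple), with the one past an adjusted p of 0.05 circled in red. The circled gene is *Gm14275* at -1.01, and 23 genes beyond 2 in either direction fall outside the vertical axis.

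Few of these transcripts differed between CD200-Fc and isotype beyond the error. Of the 192 members, *Gm14275* fell and none rose at an adjusted p of 0.05 (edgeR quasi-likelihood test, Benjamini-Hochberg over 14124 genes), that is 0.521% against 2.07% of all genes called, 1.48% higher and 0.595% lower. Unadjusted, 19 members (9.90%) had p under 0.05 against 17.1% of all genes. Of these 2 were higher (1.04% against 9.43%) and 17 lower (8.85% against 7.69%). DESeq2 called 3 members where it called 9.88% of genes, limma-trend on the normalized signal 3 (*Gm14275*, *Malat1* and *4933405E24Rik*) where it called 2.59%, edgeR with at least 10 counts in every library 2 (*Gm14275* and *Malat1*) where it called 3.56%, and edgeR with GC content and length offsets 3 where it called 1.71%. DESeq2 gave an adjusted p to 66 of the 192 members, and *Gm14275*, *4933405E24Rik* and *Gm17494* were not among them. The median log2 fold change of the members was -0.0729, and that of all genes -0.00348. By library, the median deviation of the members from their own mean was 0.024, 0.040 and 0.054 on the log2 scale with isotype and -0.023, -0.087 and 0.0099 with CD200-Fc, so replicate 36 was lowest and replicate 38 lay nearer the isotype libraries. The median log2 fold change was -0.0629 without replicate 36 and -0.117 without replicate 38. In 128 members the log2 fold change was smaller than 0.25 in size, and in 12 it reached 0.5. The median standard error was 0.20, so changes of that size could not be resolved for most members.

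The libraries of the groups did not overlap in 8 members that were higher with CD200-Fc and 30 that were lower, 4.17% and 15.6%, against 11.6% and 11.2% of all genes tested. Medians below 0 were also found in other row types. The median log2 fold change was -0.16 over the 720 other tested lncRNA rows, -0.20 over 41 unclassified (TEC) rows past the same minimum and -0.06 over 346 processed pseudogenes, whereas it was 0.01 over 9797 coding genes past that minimum. Among members it was -0.29 over 26 with 1 exon and -0.04 over 166 with several.

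*Gm14275* lies on chromosome 2 of mm10 from 172288133 to 172290520, on the plus strand, and is a lincRNA of 2 exons with a transcript of 430 bases. No coding gene overlaps it, and the nearest, *Mc3r*, a melanocortin receptor gene, lies 37.0 kb away. It had 154, 162 and 160 counts with isotype and 96, 130 and 82 with CD200-Fc. Scaled to depth these were 6.59, 7.99 and 7.96 CPM with isotype (7.51 ± 0.80, SD, n = 3) and 3.78, 3.95 and 3.40 CPM with CD200-Fc (3.71 ± 0.28, SD, n = 3). Each CD200-Fc library lay below each isotype library. The log2 fold change was -1.01 ± 0.19 (SE, edgeR adjusted p = 0.0185). The call was lost without isotype replicate 17 (adjusted p = 0.0667) or 18 (0.0655) and without CD200-Fc replicate 35 (0.0734), 36 (0.0531) or 38 (0.0663), and held without isotype replicate 16 (0.0265), with log2 fold changes of -0.95 to -1.10 throughout.

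*4933405E24Rik*, a lincRNA on chromosome 11 from 54177772 to 54213285 on the minus strand, lies 34.0 kb from *Csf2*, the gene of the cytokine GM-CSF. It had 3.90, 5.72 and 6.17 CPM with isotype and 2.01, 3.37 and 2.36 CPM with CD200-Fc. The groups did not overlap, and the log2 fold change was -1.01 ± 0.27 (SE, edgeR adjusted p = 0.0687). *Csf2* on the same strand had 345, 370 and 345 CPM with isotype and 247, 231 and 238 CPM with CD200-Fc, or -0.57 ± 0.05 on the log2 scale (SE, edgeR adjusted p = 0.000175). The coding gene on its other side, *P4ha2*, a collagen prolyl hydroxylase gene, had a log2 fold change of -0.27 ± 0.08 (SE, edgeR adjusted p = 0.118).

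**Figure D3:**
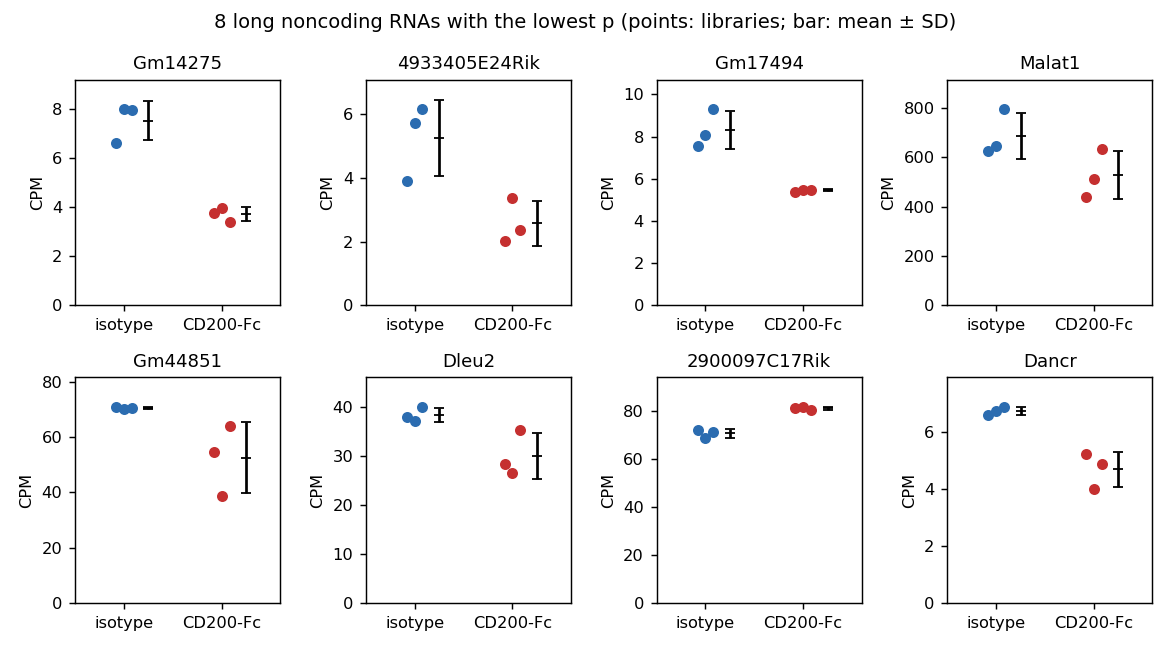
CPM in each library for the 8 long noncoding RNAs with the lowest p, with isotype libraries in blue, CD200-Fc libraries in red and the mean ± SD (n = 3) as a black bar, and every axis starts at 0. *2900097C17Rik* is the one with higher values in all 3 CD200-Fc libraries, and the groups overlap for *Malat1*.

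Among the nuclear transcripts *Malat1* had the lowest p. It had 625, 645 and 796 CPM with isotype and 439, 511 and 632 CPM with CD200-Fc. CD200-Fc replicate 38 lay above isotype replicate 16, so the groups overlapped, and the log2 fold change was -0.38 ± 0.11 (SE, edgeR adjusted p = 0.0850). *Malat1* passed in 4 alternatives, with at least 10 counts in every library (edgeR adjusted p = 0.0493), with limma-trend (0.0484), without CD200-Fc replicate 38 (0.0294) and with offsets for GC content and length (0.0338), and its adjusted p reached 0.339 with robust dispersions. *Tug1*, a transcript with known roles in chromatin regulation, had 63.4, 64.2 and 62.7 CPM with isotype and 65.3, 69.4 and 65.2 CPM with CD200-Fc (log2 fold change 0.07). *Pvt1*, transcribed beside *Myc*, had 6.71 to 8.41 CPM with isotype and 7.11 to 8.90 CPM with CD200-Fc. Of the 6 nuclear members none passed, and the median log2 fold change was -0.05.

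*Neat1* and *Kcnq1ot1* differed more within the CD200-Fc group than between groups. *Neat1* had 143, 120 and 145 CPM with isotype and 137, 84.2 and 167 CPM with CD200-Fc. *Kcnq1ot1* had 45.5, 36.3 and 46.4 CPM with isotype and 33.3, 22.5 and 47.0 CPM with CD200-Fc. In both, CD200-Fc replicate 36 was lowest of all 6 libraries and replicate 38 highest. These 2 and *Gm37494* are the 3 members with transcripts of 10 kb or more, and *Gm37494* was likewise lowest in replicate 36, at 3.04 CPM, although its highest value was 7.37 CPM in isotype replicate 16. Such drops in replicate 36 were not limited to long transcripts. *6430590A07Rik* (3.63 kb) lay at -0.88 and *Gm26532* (0.69 kb) at -0.62 from their own mean on the log2 scale. The median over all members in replicate 36 was -0.087. *Gm26917* instead was lowest in replicate 38. *AI662270* varied least of those drawn, between 187 and 197 CPM in all libraries.

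**Figure D4:**
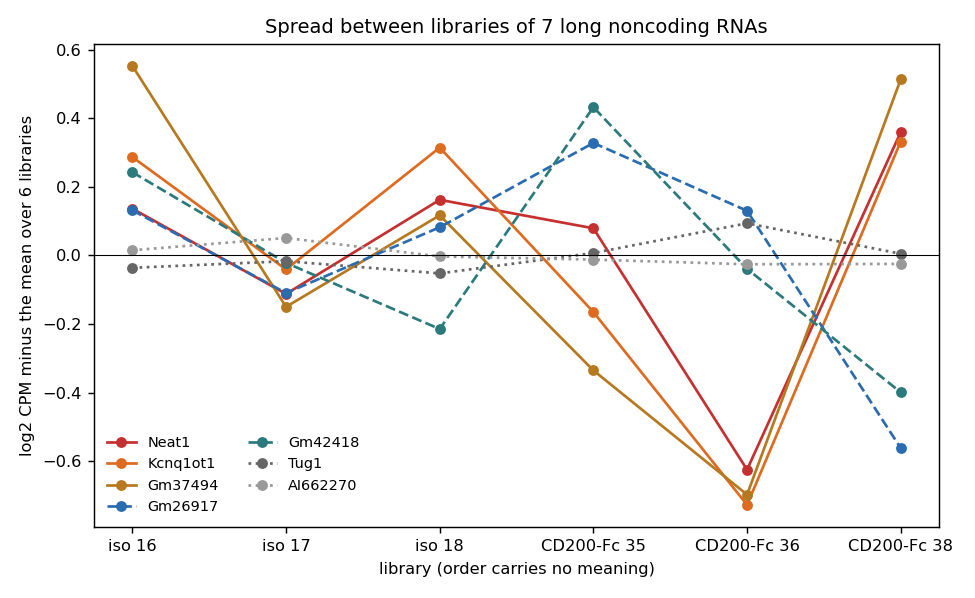
Log2 CPM of 7 long noncoding RNAs in each library as the difference from their own mean over 6 libraries. Each line is 1 gene, solid for the 3 with transcripts of 10 kb or more and dotted for *Tug1* and *AI662270*. Dashed lines are *Gm42418*, inside the ribosomal RNA row, and *Gm26917*, next to it. *Neat1*, *Kcnq1ot1* and *Gm37494* drop to between -0.62 and -0.73 in CD200-Fc replicate 36. The genes were chosen after their values were seen.

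Genes of proteins that hold or process such RNAs were examined as background. Of 66 tested genes of paraspeckles, nuclear speckles, the nuclear exosome, microRNA processing and transcription termination, 1 passed the test, where 2.07% of all genes did. That gene was *Ints8*, a subunit of the Integrator complex that ends noncoding transcripts. It rose from 88.3 ± 2.41 to 110 ± 1.45 CPM (SD, n = 3 each, log2 fold change 0.32, edgeR adjusted p = 0.0186). The median over the 66 genes was -0.01.

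The 3 cytoplasmic members had log2 fold changes on both sides of 0, and none passed. *2900097C17Rik* is the symbol used here for *Norad*, which binds Pumilio proteins and guards chromosome stability. It had 72.2, 68.8 and 71.2 CPM with isotype and 81.4, 81.8 and 80.5 CPM with CD200-Fc, so all CD200-Fc libraries lay above all isotype libraries. The log2 fold change was 0.20 ± 0.06 (SE, edgeR adjusted p = 0.128), or 0.12 with offsets for GC content and length, chosen after seeing the data (edgeR adjusted p = 0.352), and 51.6% of its transcript matched other transcripts. *Dancr*, known for holding progenitor cells undifferentiated, had 6.59, 6.71 and 6.86 CPM with isotype and 5.20, 3.98 and 4.85 CPM with CD200-Fc. Its groups did not overlap either, with a log2 fold change of -0.53 ± 0.19 (SE, edgeR adjusted p = 0.165). *Oip5os1*, or Cyrano, which triggers the decay of miR-7, had 84.0 to 91.2 CPM with isotype and 89.7 to 100 CPM with CD200-Fc.

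None of the 6 microRNA hosts passed, with a median log2 fold change of -0.23. *Dleu2*, host of the miR-16 sequence printed above, had 37.8, 37.0 and 39.9 CPM with isotype and 28.3, 26.4 and 35.3 CPM with CD200-Fc. Every CD200-Fc library was lower, and the log2 fold change was -0.35 ± 0.11 (SE, edgeR adjusted p = 0.113). *Gm17494*, host of miR-760, had 7.54, 8.09 and 9.30 CPM with isotype and 5.39, 5.47 and 5.47 CPM with CD200-Fc (log2 fold change -0.61 ± 0.17, SE, edgeR adjusted p = 0.0815). Its exons overlap those of the coding gene *Gclm* on the other strand, so its count is uncertain. *Mir22hg* had 19.7, 26.5 and 20.5 CPM with isotype and 17.3, 16.3 and 21.6 CPM with CD200-Fc, with overlapping groups. *Mir17hg*, host of the 17-92 cluster, had 2.57 to 4.50 CPM with isotype and 3.66 to 4.56 CPM with CD200-Fc, with a log2 fold change of 0.05 ± 0.26 (SE). The other 2 hosts, *2900076A07Rik* and *Gm10505*, had log2 fold changes of 0.06 and -0.19.

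Of 7 members on the immune list none passed, with a median of -0.08. *Morrbid* had 16.3, 20.3 and 17.3 CPM with isotype and 20.8, 20.8 and 21.6 CPM with CD200-Fc. These groups did not overlap, with a log2 fold change of 0.23 ± 0.12 (SE, edgeR adjusted p = 0.340), and *Bcl2l11* beside it had 5.58 ± 0.50 and 5.60 ± 0.54 CPM (SD, n = 3). *AU020206* had 58.3 to 60.8 CPM with isotype and 49.9 to 56.3 CPM with CD200-Fc, and *AI506816* 5.02 to 5.995 and 4.53 to 4.93 CPM. Of 6 p53 or stress members none passed (median -0.18), including *Lncpint* at -0.33. The imprinted members were *Kcnq1ot1* and *Peg13*, and *Peg13*, expressed from the paternal copy, had 4.03, 4.59 and 3.43 CPM with isotype and 2.64, 2.65 and 2.90 CPM with CD200-Fc (log2 fold change -0.56, edgeR adjusted p = 0.253). Of 14 members named as opposite strand or antisense transcripts 7 had a positive and 7 a negative log2 fold change, from -0.59 for *Runx2os1* to 0.23 for *Cep83os*, and none passed.

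**Figure D5:**
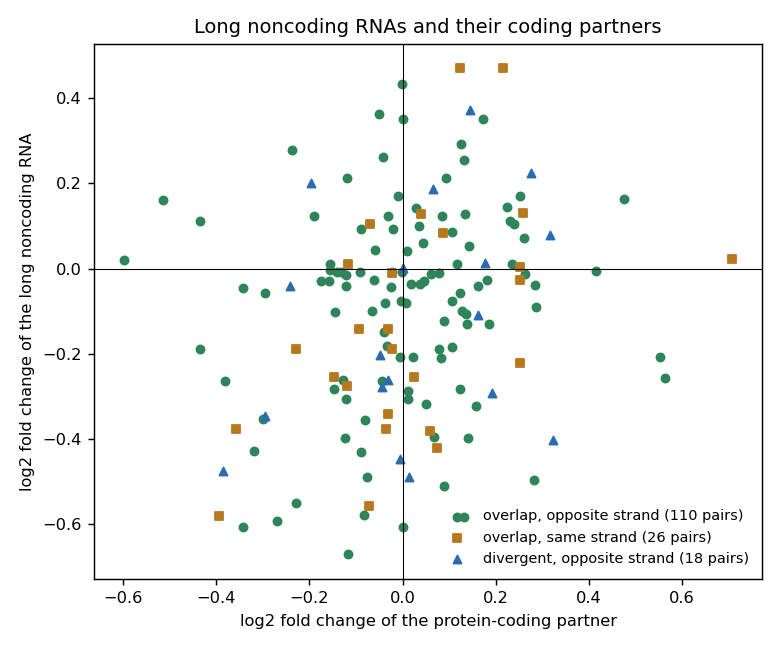
Log2 fold change of each long noncoding RNA against that of its protein-coding partner, 1 point a pair, with green circles for overlap on opposite strands, brown squares for overlap on the same strand and blue triangles for divergent pairs. Points spread widely around 0 on both axes, with Pearson's r of 0.12, 0.49 and 0.31 in that order.

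Coding partners were compared with members in 154 pairs over 126 members. The log2 fold changes had a Pearson's r of 0.12 and a Spearman's rho of 0.13 over 110 pairs overlapping on opposite strands, 0.49 and 0.52 over 26 pairs on the same strand, and 0.31 and 0.28 over 18 divergent pairs. The points share libraries and, where exons overlap, possibly reads. Of these pairs 5 had a partner that passed the test, where 2.07% of all genes passed. The only member that passed, *Gm14275*, has no coding partner and is in no pair. *Gclm*, a subunit of the enzyme that makes glutathione, fell from 129 ± 9.77 to 101 ± 5.69 CPM (SD, n = 3, log2 fold change -0.34, edgeR adjusted p = 0.0248). *Gm17494* overlaps it on the other strand, with 296 exon bases in common and a mean of 6.88 CPM, so the count of *Gm17494* is uncertain. *Nfkb2*, which encodes the p100 and p52 NF-kB proteins, fell by 0.60 on the log2 scale (edgeR adjusted p = 0.00405), while *4833438C02Rik* across its start had a log2 fold change of 0.02 ± 0.19 (SE). *Pglyrp2* (0.55), *Pik3c2a* (0.56) and *Zfp148* (0.32) rose, beside values of -0.21 for *A530088E08Rik*, -0.26 for *Gm44777* and -0.40 for *1700007L15Rik*, none of which passed.

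Members within genes that define ILC2s had estimates near 0 with wide errors. *Gm12214*, antisense in the type 2 cytokine gene *Il5*, had a log2 fold change of -0.04 ± 0.17 (SE) and *Il5* -0.03. However, 100% of the *Gm12214* transcript matched *Il5*, and with isotype *Gm12214* had 9.04 CPM and *Il5* 4761 CPM. The count of *Gm12214* is therefore uncertain. *Gm13256*, antisense in the lineage factor gene *Gata3*, had -0.10 ± 0.26 (SE) and *Gata3* -0.06. Their exons overlap by 155 bases. *Gm13256* had a mean of 2.96 CPM and *Gata3* 1123 CPM with isotype, so the count of *Gm13256* is uncertain too. *Gm44851* lies across the start of *Furin*, the gene of a proprotein convertase. It had 70.9, 70.1 and 70.6 CPM with isotype and 54.5, 38.7 and 64.1 CPM with CD200-Fc, without overlap of the groups (log2 fold change -0.43 ± 0.13, SE, edgeR adjusted p = 0.109), and *Furin* had -0.09 ± 0.04 (SE). The log2 fold change of *Gm44851* was -0.25 without CD200-Fc replicate 36 and -0.60 without replicate 38. Exons of *Gm44851* overlap those of *Furin*, at 2305 CPM with isotype, by 118 bases, so the count of *Gm44851* is uncertain. *Gm28592*, antisense in *Phlda1*, had 0.26 and *Phlda1* -0.04. As 98.4% of the *Gm28592* transcript matched *Phlda1*, its count is uncertain as well.

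The remaining members at the ends of the order were of low level. The highest log2 fold changes were 0.47 for *Gm50230*, 0.43 for *Gm20402* in *Foxo1*, 0.37 for *8430429K09Rik*, 0.36 for *Gm13522*, 0.35 for *Gm16201* and 0.29 for *Gm26885*, all with means under 6 CPM. The lowest after those described were -0.67 for *1700113A16Rik* in *Mef2d*, -0.59 for *Runx2os1* and -0.58 for *Gm9856*. None of these passed, and 53.8% of *1700113A16Rik*, 65.5% of *Runx2os1*, 78.5% of *Gm50230* and 85.9% of *Gm20402* matched other transcripts. Over all members 37 had at least 50 percent of their transcript matched to others (median log2 fold change -0.15), 79 had less than that (-0.03) and 76 had no match (-0.07). Only the longest transcript of each other gene was searched, so no match does not mean no shared sequence. *D330041H03Rik* had no match, although its exons overlap those of *Abca3* by 914 bases.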

How the data were processed

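RNA from 6 ILC2 samples (10 ng input) was sequenced on an Illumina NextSeq. Per the labels and methods, the authors used bcl2fastq 2.17.1.14, STAR 2.5.3a on mm10 and Partek. They deposited expected counts per gene from an expectation-maximization step, and a normalized signal, which equals the count plus 1 times 1 factor per library. Which gene models were used was not given in the sources used here, but 99.6% of starts equalled those of GENCODE M21. A legend of the study adds rmIL-33 to the culture, which the labels do not list.

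Counts were rounded to whole numbers, filtered with filterByExpr, scaled by TMM and tested with edgeR 4.0.16 (glmQLFit, glmQLFTest; R 4.3.3) on 3 against 3 libraries, with p-values adjusted over 14124 genes. CPM are TMM-scaled. An exact permutation test of 3 against 3 cannot go below p = 0.1. Transcript matches used BLAST 2.17.0 (identity 95%, at least 100 bases) between the longest transcripts of each member and of every other gene. The named genes were every called member, the 15 highest by mean CPM, the 6 highest and 6 lowest log2 fold changes, all members on the lists, and the 3 on either side of the count minimum; other named genes were chosen after their values were seen. Partners were coding genes overlapping a member or starting within 5000 bases on the other strand. Members and lists were chosen with earlier results of these data known. Alternatives were other scalings and filters, DESeq2 1.42.0, limma 3.58.1 (pseudocount 1 on the normalized signal), other count minimums and each library left out. The test was checked on simulated data.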

Additional observations from a re-analysis of the deposited data

How the results depend on the processing

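No paired analysis was possible because the sources used here do not say which mouse or culture each library came from. The count of members called was 1 and stayed 1 with upper quartile or total count scaling, robust dispersions, no filter, voom, and without members overlapping coding genes. It was 2 with at least 10 counts in every library, 3 with DESeq2 and 3 with limma-trend, 2 of 385 with a count minimum of 20 and 0 of 103 with 100. Leaving out 1 library gave 0 to 1 calls, and the call without CD200-Fc replicate 38 was *Malat1* (adjusted p = 0.0294), not *Gm14275*. DESeq2 called *Gm44851*, *Dleu2* and *2900097C17Rik* and gave *Gm14275* no adjusted p. Over all genes it called 881, against 293 by edgeR. Alternatives chosen after seeing the data were GC content and transcript length offsets (3 calls: *Gm14275*, *Malat1* and *Gm28592*) and a mean CPM minimum of 2.49 in place of the count minimum (2 of 238).

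The median log2 fold change of the members, -0.0729, was -0.0498 to -0.0942 under the other scalings, filters, tests and offsets, -0.113 with a count minimum of 20 and -0.0603 to -0.117 with 1 library left out. Upper quartile scaling and the normalized signal changed the non-overlapping members from 8 above and 30 below to 4 and 36, and to 4 and 37. With 1 library left out 54 to 67 did not overlap, which fewer libraries make easier. The share over all genes was not counted under these settings, so these shifts cannot be judged against it. Of 750 single-gene values, 37 changed sign, none of them called. Counts near 50 limit the precision of the lowest members.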

Other observations

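Among the 720 tested lncRNA rows outside the group described, 3 passed edgeR's adjusted test, all lower with CD200-Fc. *Gm17041* had 3.55, 1.92 and 2.59 CPM with isotype and 0.787, 0.213 and 0.373 CPM with CD200-Fc (log2 fold change -2.57, edgeR adjusted p = 0.0185). *C130036L24Rik* had 3.21, 3.55 and 4.18 CPM with isotype and 1.57, 1.16 and 1.41 CPM with CD200-Fc (log2 fold change -1.40, edgeR adjusted p = 0.0265). *Gas5*, a small nucleolar RNA host with known growth-arrest roles, had 106, 112 and 115 CPM with isotype and 92.4, 86.1 and 96.5 CPM with CD200-Fc (log2 fold change -0.28, edgeR adjusted p = 0.0480). They were chosen for passing the test.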
